A study of Mus musculus with 2 samples.

Results

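The genes described here encode subunits of RNA polymerase II, measured in single E14 mouse embryonic stem cells (129/Ola background) with or without knockdown of Son. The 10 members were the feature rows with the symbols Polr2a, Polr2b, Polr2c, Polr2e, Polr2f, Polr2h, Polr2i, Polr2j, Polr2k and Polr2l, of 32285 genes listed in all, and the set, with Polr2l against the other 9, was chosen by name and selected on the log2 ratio of sonKD over control, the CPM levels and the co-variation over cells of these same libraries. Those values are therefore given as a description. All 10 had a mean of at least 10 CPM, so none was lost to the filter on low values (CPM, the count of a gene scaled to the same library total). The control group was 1 library of cells transfected with a control siRNA, and the sonKD group was 1 library transfected with siRNA against Son, which encodes a nuclear speckle protein that takes part in splicing. Both grew in serum with leukaemia inhibitory factor, were transfected with Lipofectamine2000, and 24 hours later were harvested, frozen, thawed and sorted with 7-AAD before barcoding, so each group also carries 1 preparation. With 1 library per group, an effect of the knockdown and a difference between preparations cannot be told apart, no test was possible, and every interval below covers counting error only, at 95%.

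RNA polymerase II makes messenger RNA precursors. Polr2a and Polr2b encode the large subunits that form the catalytic cleft, and Polr2a also carries the carboxy-terminal repeat domain that is phosphorylated during transcription. Polr2c, Polr2j, Polr2k and Polr2l belong to the small platform on which the enzyme assembles. Polr2e, Polr2f, Polr2h, Polr2k and Polr2l are shared with RNA polymerases I and III, while Polr2i belongs to polymerase II and takes part in transcript cleavage and fidelity.

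Cells were barcodes with at least 2500 UMIs (unique molecular identifiers, each marking 1 captured molecule), a minimum of 1000 genes and no more than 10% mitochondrial UMIs. The rule left 4978 control cells with a median of 7737.5 UMIs and 2731 sonKD cells with a median of 11612, and 2 barcode sequences occurred in both. Mitochondrial UMIs exceeded the limit in 11.2% of otherwise qualifying control barcodes and 27.9% of sonKD ones, and ribosomal protein genes held 20.7% and 24.1% of the cells' UMIs; their part in the ratios below was not tested beyond the scalings named. Son itself measured 169 CPM in the control cells against 106 CPM in the sonKD cells, a log2 ratio of -0.67 (-0.73 to -0.61). The 8 stem cell markers summed to 8164 and 8922 CPM, against 19.5 and 15.7 CPM for 6 primitive endoderm markers, 4.67 and 4.56 CPM for 6 mesoderm markers and 3.18 and 3.65 CPM for 6 fibroblast markers, among which Col3a1 and Lum were at 0 in both libraries and Dcn in sonKD.

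The promoters of Polr2l and Polr2e are shown because these genes had the highest and the lowest ratio of sonKD over control among the members. Each window runs from 250 bases before to 50 bases after the gene's start in RefSeq on GRCm38.p6, written 5′ to 3′ on the gene's strand, chr7:141475104-141475403 on the minus strand for Polr2l and chr10:80039610-80039909 on the minus strand for Polr2e. Capitals mark GGGCGG, the GC box, on either strand.
Polr2l promoter: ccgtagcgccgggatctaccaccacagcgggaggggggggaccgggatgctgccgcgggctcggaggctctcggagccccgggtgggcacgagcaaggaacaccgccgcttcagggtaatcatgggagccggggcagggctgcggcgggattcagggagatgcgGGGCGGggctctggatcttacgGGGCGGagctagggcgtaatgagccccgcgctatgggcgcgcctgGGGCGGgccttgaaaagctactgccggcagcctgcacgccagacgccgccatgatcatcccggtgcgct
Polr2e promoter: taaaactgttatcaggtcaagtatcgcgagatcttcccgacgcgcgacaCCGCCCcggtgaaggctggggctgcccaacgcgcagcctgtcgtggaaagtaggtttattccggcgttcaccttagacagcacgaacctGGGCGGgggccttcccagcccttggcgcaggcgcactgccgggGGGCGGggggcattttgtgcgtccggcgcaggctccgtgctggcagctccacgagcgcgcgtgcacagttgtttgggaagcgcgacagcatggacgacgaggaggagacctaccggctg
Both windows held 3 GC boxes, a motif found at least once in 35.7% of all 32851 promoter windows and in 7 of the 9 members with an entry. GC content was 71.0% in the Polr2l window, the highest of the members' 10 windows, and 65.0% in that of Polr2e, against a median of 52.7% over all windows. Neither held TATAAA (13.6% of all windows; Polr2a and Polr2c), CCAAT (37.4%; Polr2c, Polr2i and Polr2j), CCGGAAG, the Ets motif (8.86%; Polr2c, Polr2f and Polr2j) or a fixed Nrf1 or YY1 word (0.971% and 0.633%; no member), each sought on both strands. These matches describe letters in a window, and the ends of the ratio scale did not differ in which of the 6 motifs they held.

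Levels of the subunit genes ran from 16.3 to 350 CPM in control and from 41.9 to 278 CPM in sonKD. Positions are those of GENCODE M21 on GRCm38. Among the large catalytic subunits, Polr2a (chromosome 11, 69733997 to 69758637) measured 161 CPM (157 to 165) in control against 157 CPM in sonKD (153 to 161). Polr2b (chromosome 5, 77310147 to 77349324) was at 136 CPM (132 to 139) and 120 CPM (116 to 123). The Polr2a intervals of the 2 libraries overlapped and those of Polr2b did not.

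Of the assembly platform, Polr2c (chromosome 8, 94857450 to 94873535) measured 321 CPM (315 to 326) in control against 278 CPM in sonKD (272 to 284), and its partner Polr2j (chromosome 5, 136116631 to 136122947) was at 183 CPM (179 to 187) and 199 CPM (194 to 203). These partners, which pair in the enzyme, differed between the libraries in opposite directions. Polr2k (chromosome 15, 36174010 to 36177010), a small zinc-binding subunit, was at 39.1 CPM (37.2 to 41.1) and 53.8 CPM (51.2 to 56.4). Polr2l (ENSMUSG00000038489; chromosome 7, 141471860 to 141475132, minus strand), which encodes the zinc-binding subunit RPB10, measured 16.3 CPM (15.1 to 17.6) from 666 UMIs in control against 41.9 CPM (39.7 to 44.2) from 1342 UMIs in sonKD. It was the lowest of the 10 in both libraries, and its intervals did not overlap.

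The remaining shared subunits were more abundant. Polr2e (chromosome 10, 80035949 to 80039795) measured 350 CPM (344 to 356) in control against 265 CPM in sonKD (259 to 271). Polr2f (chromosome 15, 79141009 to 79151774) was at 258 CPM (253 to 263) and 261 CPM (256 to 267), with overlapping intervals, and Polr2h (chromosome 16, 20717665 to 20722267) was at 80.8 CPM (78.1 to 83.6) and 99.5 CPM (96.0 to 103). Polr2i (chromosome 7, 30231948 to 30233390), which is not shared with the other polymerases, was at 114 CPM (111 to 118) and 138 CPM (134 to 142).

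In descending order the control CPM ran Polr2e, Polr2c, Polr2f, Polr2j, Polr2a, Polr2b, Polr2i, Polr2h, Polr2k and Polr2l, and no neighbouring intervals overlapped. In sonKD Polr2c passed Polr2e and Polr2i passed Polr2b, and Polr2e and Polr2f had overlapping intervals. CPM of 3′ end counts is not divided by length. Each UMI marks 1 captured molecule whatever its length, so the values per kilobase below are a rescaling and not a level. Per kilobase of annotated transcript, Polr2e led in control at 305 CPM per kilobase and Polr2j in sonKD at 307. On that scale Polr2l was last in control, at 9.87 CPM per kilobase, but passed Polr2a in sonKD, at 25.4 against 23.3. The Polr2l value divides by its 1 annotated transcript of 1650 bases, which may not be the main form in these cells. A shorter form would raise that value and could change its rank on this scale.

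**Figure D1:**
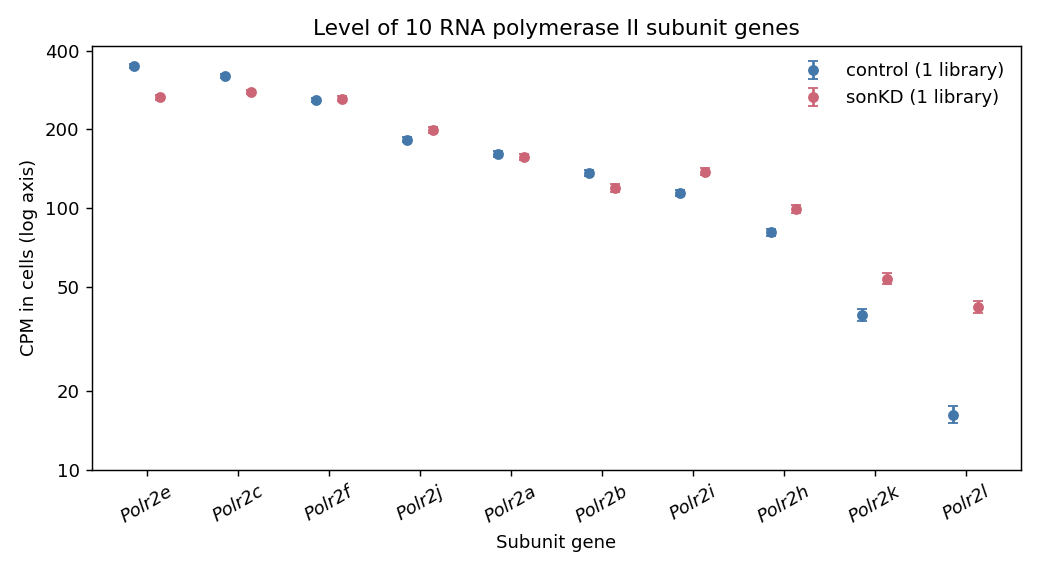
Level of each subunit gene in cells, in CPM on a log axis, with 1 point per library (blue, control; red, sonKD) and bars for the exact Poisson 95% interval of the count. Polr2l is lowest in both libraries and has the widest gap between them, at 16.3 and 41.9 CPM, while Polr2f has overlapping intervals at 258 and 261 CPM.

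The log2 ratio of sonKD over control asks how each subunit gene differed between the libraries, and it showed no shared direction. Polr2l was 2.57-fold of control (2.34 to 2.83), a log2 ratio of 1.36 (1.23 to 1.5). Above 0 followed Polr2k at 0.46 (0.36 to 0.56), Polr2h at 0.30 (0.23 to 0.37), Polr2i at 0.27 (0.21 to 0.33) and Polr2j at 0.12 (0.07 to 0.17). Polr2f at 0.017 (-0.024 to 0.059) and Polr2a at -0.038 (-0.091 to 0.015) had intervals that included 0. Their sign depended on the setting, since TMM factors gave Polr2a 0.052 and thinned cells gave Polr2f -0.038. Polr2b at -0.18 (-0.24 to -0.12), Polr2c at -0.21 (-0.24 to -0.17) and Polr2e at -0.40 (-0.44 to -0.36) lay below 0. The interval was thus above 0 for 5 members and below 0 for 3, beside 12.3% and 51.5% of all 8063 genes of at least 10 CPM.

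A log2 ratio of at least 0.32 in size was used to count a gene as higher or lower, without a test. Of the 10 members, Polr2l and Polr2k were higher by that measure and Polr2e was lower, beside 3.5% higher and 10.2% lower among those 8063 genes. TMM factors brought Polr2h and Polr2i past the upper limit and Polr2e inside the lower one, which made 4 members higher and 0 lower. They also moved all genes from 282 higher and 820 lower, where 25.6% of the differing genes were higher, to 449 higher and 371 lower, where 54.8% were. By at least 2-fold, Polr2l was higher, beside 0.211% of all genes, and no member was lower, beside 0.0496%. Since the members were chosen with these ratios known, nothing is read from their counts. The median was 0.068 over the 10 members, 0.017 over the 9 without Polr2l and -0.12 over all genes.

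Polr2l ranked 10 of 8063 genes by its ratio, Polr2k 148, Polr2h 311 and Polr2i 362, while Polr2e ranked 7668. Set against the other subunits, the Polr2l ratio was 1.35 above their median, and it stayed between 1.28 and 1.37 above it under the 7 alternatives tried. Among these, CPM without mitochondrial and ribosomal protein genes only rescales each library and could not change this difference. The share of Polr2l among the UMIs of the 10 genes, which no scaling of the library can change, was 666 of 67882 or 0.981% in control (0.908 to 1.06) and 1342 of 51655 or 2.60% in sonKD (2.46 to 2.74). The other 9 together had a log2 ratio of -0.065 (-0.082 to -0.049), from 1643 to 1571 CPM. For all 10 summed the log2 ratio was -0.041 (-0.058 to -0.025), and Polr2l was a small part of that sum.

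**Figure D2:**
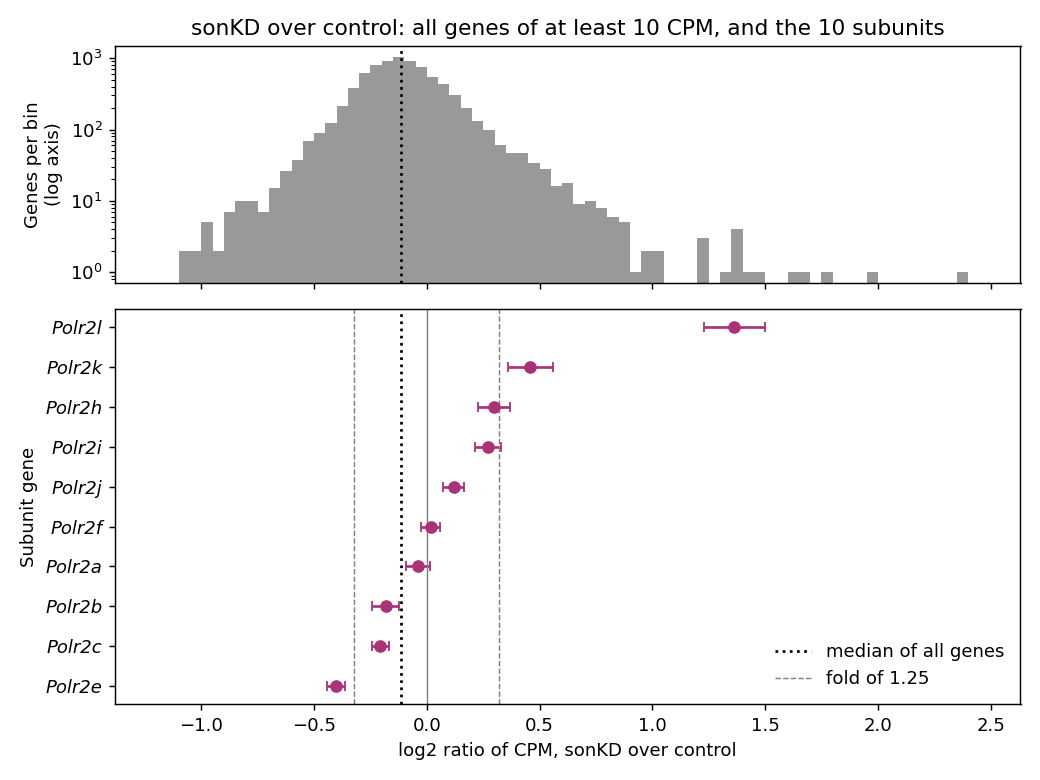
Log2 ratio of CPM, sonKD over control, for all 8063 genes as a histogram with a log count axis (top) and for each subunit gene as a point with its exact conditional 95% interval (bottom). Polr2l at 1.36 lies apart from the other 9 members, which run from -0.40 to 0.46 with a median of 0.017. Of these 9, 6 lie above the median of all genes at -0.12 (dotted line).

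Counts of some members depend on how reads were assigned. In GENCODE M21, the last 500 bases of the transcript were free of 95% identical sequence in other genes' transcripts for 7 members. For Polr2h, 50.4% was shared with Gm7511, and for Polr2k 67.5% of its 489 bases with 6 other genes, among them Polr2k-ps, so their counts are uncertain. For Polr2l 27.2% was shared, in pieces that occur in transcripts of 18 other genes, and the part of this in its ratio was not tested. No annotated gene overlapped Polr2l. Its nearest listed neighbours are on the other strand and were chosen for naming after their values were seen, with Cd151, 386 bases beyond the 3′ end, at a log2 ratio of -0.19 (-0.35 to -0.03) and Tspan4, 107 bases beyond the 5′ end, at -0.13 (-0.31 to 0.04). Polr2b, Polr2c, Polr2f, Polr2h, Polr2i and Polr2j overlap genes on the opposite strand, Polr2c over 9708 bases with Dok4. On its own strand Polr2b overlaps the processed pseudogene Gm42758 over 283 bases, the sole overlap on the same strand among the 10 members.

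Transcript length moved with the ratio among the members. The 5 members with transcripts under 1000 bases, Polr2f, Polr2h, Polr2i, Polr2j and Polr2k, had log2 ratios from 0.017 to 0.46, and the 4 longer ones other than Polr2l had ratios from -0.40 to -0.038. Spearman's rho of length and ratio was -0.72 over the 9 genes without Polr2l and -0.41 over all 10, which share 2 libraries. With the number of exons in place of length, rho was -0.71 without Polr2l and -0.79 over all 10. Polr2l has the fewest annotated exons of the members and the highest ratio. All genes showed a gradient as well. The median ratio was 0.039 in the decile with the shortest transcripts and -0.17 in the decile with the longest. The shortest decile held Polr2f, Polr2h, Polr2i, Polr2j and Polr2k, and 20.6% of its 810 genes were higher by the limit of 0.32. In the longest decile, which held Polr2a, 0.372% were higher. Polr2l has 1 annotated transcript, of 1650 bases in 2 exons, and lay in the third decile from the shortest, where the median was -0.059 and 3.23% of 806 genes were higher by the limit of 0.32. Its decile, its place on the length axis and its separation from the short members rest on that annotated length, which may not be that of the main form. Neither the length gradient nor the number of exons was tested as a part of any member's ratio.

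**Figure D3:**
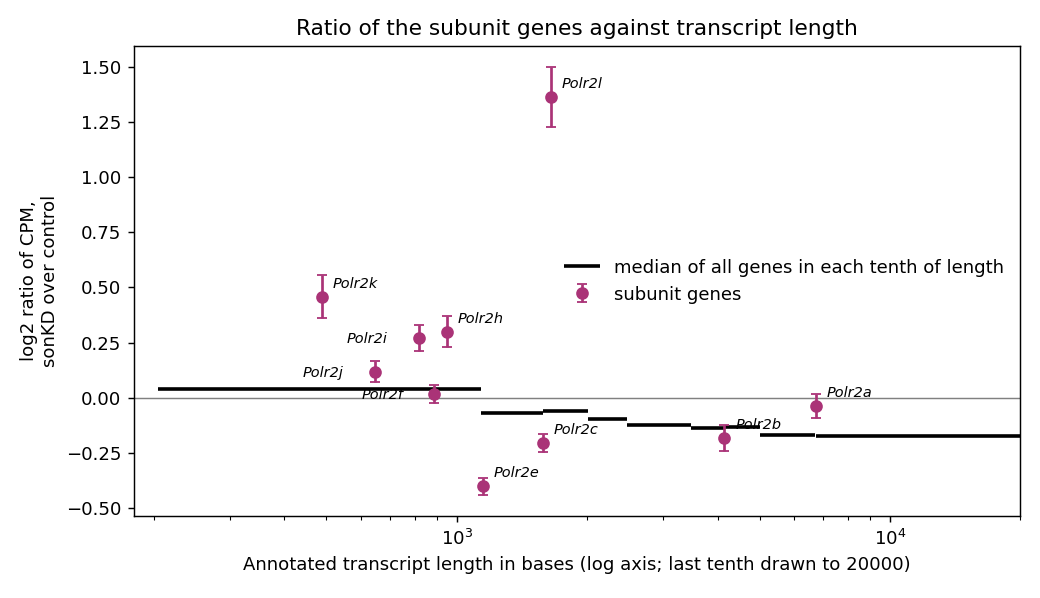
Log2 ratio of CPM, sonKD over control, against annotated transcript length in bases (log axis), with points and 95% intervals for the 10 subunit genes and black lines for the median of all genes in each decile of length. Polr2l, placed at its annotated 1650 bases, lies at 1.36, while the lines run from 0.039 to -0.17.

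Detection per cell was compared at equal depth because sonKD cells were deeper. In cells thinned to 2500 UMIs, which left out no cell, Polr2l had a UMI in 4.04% of cells (3.51 to 4.62) in control against 9.48% (8.41 to 10.6) in sonKD. Unthinned shares were 12.4% and 37.4%. Unthinned, 1 UMI was seen in 567 control cells, 2 in 45 and 3 in 3, and the highest count in a sonKD cell was 5. The variance of thinned Polr2l counts over their mean was 1.04 in control and 1.00 in sonKD, where Poisson counts give 1, and no thinned cell held more than 2.

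No cell type that lacks these genes was measured as a background. Near-empty droplets of 100 to 500 UMIs, which hold free RNA, had Polr2l at 27.1 CPM (24.7 to 29.6) in control against 61.7 CPM (58.2 to 65.4) in sonKD, above the cells of the same library. The part of free RNA in the cells' Polr2l counts was not tested.

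The other members were found more often. Polr2e, the most frequent in control, had a UMI in 58.6% (57.2 to 59.9) of thinned cells in control against 47.3% (45.5 to 49.2) in sonKD, and Polr2a in 32.5% (31.2 to 33.8) and 30.6% (28.9 to 32.4). Polr2k was found in 9.34% (8.55 to 10.2) and 11.5% (10.3 to 12.7). The variance over the mean ran from 0.978 to 1.10 across the 10 genes and both libraries, and Polr2a had the highest value in each library, at 1.07 and 1.10.

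Across bins of barcodes, the Polr2l ratio was compared with that of the other 9 genes together. In cells of 2500 to under 5000 UMIs the log2 ratio of Polr2l was 1.13 (0.28 to 1.96), in those of 5000 to under 10000 UMIs 1.41 (1.17 to 1.65), in those of 10000 to under 20000 UMIs 1.32 (1.10 to 1.55), and in the 49 control and 114 sonKD cells of at least 20000 UMIs 0.65 (0.06 to 1.28). The other 9 together had ratios from -0.18 to -0.036 in the same bins. Polr2l was higher in sonKD at each depth. The intervals of its share of the subunit UMIs did not overlap between the libraries except in the deepest bin, with 1.53% (1.04 to 2.18) in control and 2.54% (2.09 to 3.06) in sonKD. Depth bins, like the cell cycle calls below, divide the same UMIs that give the ratio on which Polr2l was selected. Their shared direction is therefore no added support. Polr2e lay below 0 in all 4 depth bins, from -0.86 to -0.37, while Polr2k ran from -0.091 to 0.53.

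By cell cycle call, Polr2l had a ratio of 1.44 (1.26 to 1.61) in cells called S and 1.26 (1.04 to 1.48) in cells called G2/M. In the 114 control and 104 sonKD cells called G1 it was 1.31 (0.05 to 2.77), from 7 and 24 UMIs. The summed level of the other 9 was 1664 CPM in S, 1625 in G2/M and 1232 in G1 in control, and 1586, 1570 and 1177 CPM in sonKD. Cells called G1 also had the fewest UMIs, with means of 4564 in control and 6920 in sonKD against at least 7984 and 11525 in the other phases, so no cycle dependence is read.

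Barcodes that the rule left out gave the same direction for Polr2l, although they come from the same 2 libraries. Among barcodes of cell depth with more than 10% mitochondrial UMIs, 625 in control and 1056 in sonKD, the Polr2l ratio was 1.69 (0.94 to 2.52), against -0.0040 (-0.074 to 0.067) for the other 9. Shallow barcodes of 700 to under 2500 UMIs gave 1.22 (0.82 to 1.64) above the mitochondrial limit and 1.65 (0.62 to 2.75) below it, and near-empty droplets gave 1.19 (1.04 to 1.34). Polr2e was lower in sonKD in each of these 4 classes, from -0.68 to -0.25, as it was in cells.

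**Figure D4:**
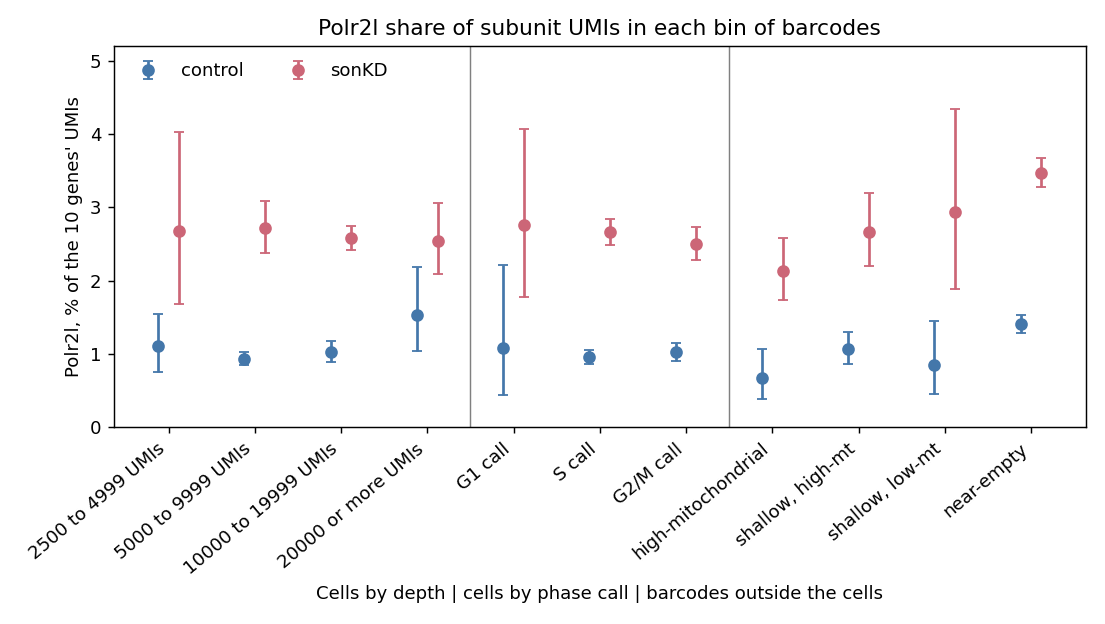
Share of Polr2l among the UMIs of the 10 subunit genes, in percent, by total UMIs per cell, by cell cycle call and in the barcodes outside the cells, for control (blue) and sonKD (red) with exact binomial 95% intervals. The sonKD share is the higher in each bin, from 2.13% to 3.46% against 0.670% to 1.53% in control, and the intervals overlap only in the deepest cells and in G1.

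In near-empty droplets the large subunits stood apart from the small ones. In control, Polr2a was at 161 CPM in cells, 256 CPM in high-mitochondrial barcodes (234 to 280) and 45.3 CPM in near-empty droplets (42.2 to 48.4). In sonKD it was at 157, 191 and 30.6 CPM. Polr2b was likewise low among free RNA, at 0.361 of its level in control cells and 0.336 in sonKD cells. The small subunit Polr2k lay at the other end, with 1.97 times its cell level in near-empty control droplets and 1.90 times in sonKD, and Polr2l had 1.66 and 1.47 times. Among high-mitochondrial barcodes, only Polr2a of the 10 was above its cell level in either library, by 0.67 (0.53 to 0.80) in control and 0.28 (0.16 to 0.40) in sonKD on the log2 scale, as Son was by 0.84 and 0.82. Polr2b was at a log2 ratio of -0.28 (-0.48 to -0.08) there in control, among the values of the small subunits, and -0.098 (-0.25 to 0.05) in sonKD. Polr2l was lower there, by a log2 ratio of -0.92 (-1.71 to -0.23) and -0.60 (-0.90 to -0.30). Spearman's rho of transcript length with the ratio of near-empty droplets over cells was -0.70 in control and -0.81 in sonKD over the 10 genes, and -0.93 in both without Polr2l, points that share the library.

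Co-variation over cells was sought within each library at 2500 UMIs per cell, and it was near 0 for all 45 pairs. In control, Pearson's r over 4978 cells ran from -0.032 for Polr2b with Polr2e to 0.046 for Polr2c with Polr2i, with a mean of 0.0026. In sonKD, over 2731 cells, it ran from -0.039 for Polr2a with Polr2j to 0.062 for Polr2h with Polr2j, with a mean of 0.0092. The highest pair of one library was not the highest of the other. Median Spearman's rho was 0.0034 and 0.0066. These genes have under 1 UMI per thinned cell on average, and in counts so sparse a weak correlation is no finding. Nor can an r near 0 in such counts show that the genes vary independently, least of all for Polr2l, the sparsest.

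The pairs with Polr2l lay within the range of the others. These 9 pairs had a mean r of -0.0019 in control (-0.015 to 0.020) and 0.0065 in sonKD (-0.029 to 0.039), and the 36 pairs among the other genes had 0.0037 (-0.032 to 0.046) and 0.0099 (-0.039 to 0.062). Cells with UMIs of both Polr2l and another subunit stood to the number that independence gives at a median ratio of 1.00 in each library, and from 0.895 to 1.17 in control and 0.876 to 1.24 in sonKD. Without thinning the mean r of the Polr2l pairs was 0.081 in control and 0.12 in sonKD, and that of the other pairs 0.17 and 0.22; depth differs among these cells.

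**Figure D5:**
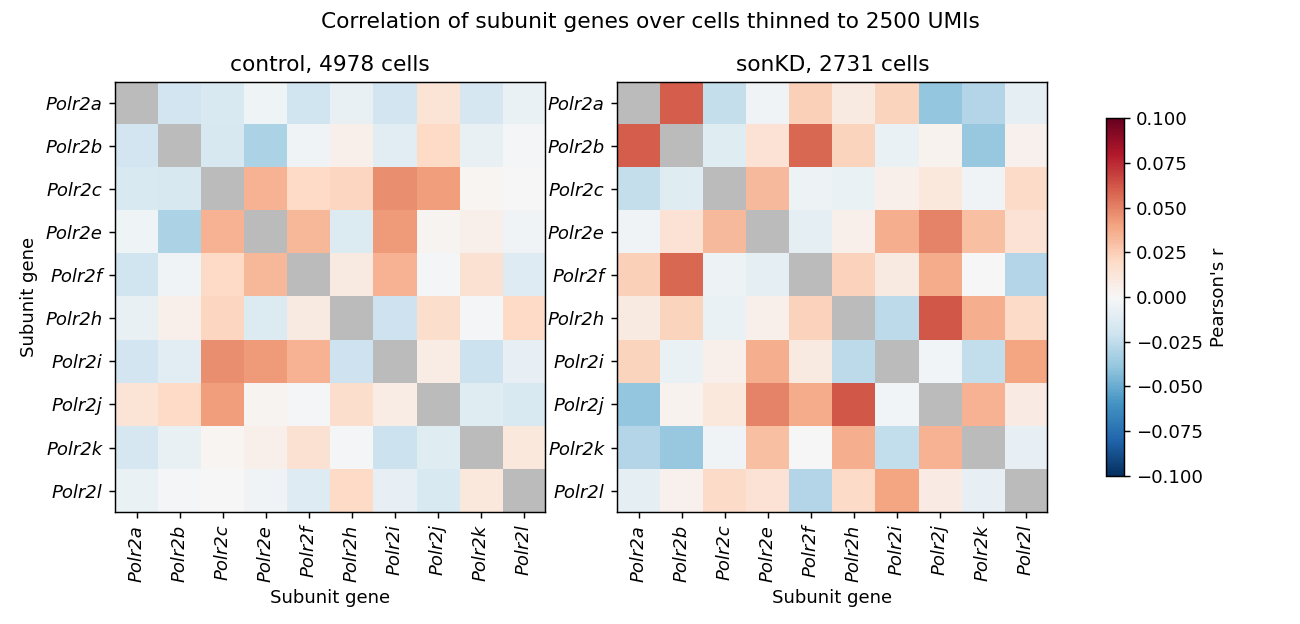
Pearson's r between the counts of each pair of subunit genes over cells thinned to 2500 UMIs, in control (left) and sonKD (right), with blue below 0 and red above 0 on a scale of -0.1 to 0.1 and the diagonal in grey. All 45 pairs in each library lie between -0.039 and 0.062, and those with Polr2l between -0.029 and 0.039.

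Genes whose counts over control cells were most like those of Polr2l, among the 3666 genes that averaged 0.1 UMI or more per thinned cell in each library, were Rplp2, Tbcc, Dap3, Ckap5 and Nectin2. Their r was 0.045 to 0.057 in control and -0.0065 to 0.040 in sonKD, where they ranked between 97 and 2247. H2afz had the highest value in sonKD, at 0.084. The 5th and 95th percentiles over the 3666 genes were -0.024 and 0.025 in control and -0.032 and 0.032 in sonKD. As the named genes are the highest of 3666 weak values, no likeness is read from them. Of the 8 other subunits that passed that minimum, Polr2h was nearest to Polr2l in control, at rank 333, and Polr2i in sonKD, at rank 101. For the other 9 subunits summed, the most alike were H2afz, Ran, Actg1, Bex1 and Ncl, with r of 0.087 to 0.13 in control. H2afz, a histone variant gene, was at 0.13 in control and 0.11 in sonKD, ranks 1 and 2 of 3658. In sonKD Ncl was at 0.088, Actg1 at 0.087 and Ran at 0.057, ranks 8, 10 and 90. Bex1 fell to 0.0050 there, rank 1719.

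Properties of the cells moved weakly with the members. Per thinned cell, the summed other 9 had an r of -0.13 in control and -0.15 in sonKD with the mitochondrial share. Polr2a differed in sign from that sum, at 0.057 and 0.041. So did Polr2b, more weakly, at 0.020 and 0.0034, and in control alone Polr2k, at 0.0095. With Malat1, a nuclear long noncoding RNA, Polr2a had an r of 0.087 and 0.073 and Polr2b 0.030 and 0.013, against -0.092 and -0.078 for the sum. With the ribosomal protein share Polr2a had -0.11 and -0.12 and Polr2b -0.047 and -0.049, against 0.019 and -0.033 for the sum. Polr2l had an r between -0.042 and 0.034 with each of the 7 measures in each library. The measures were total UMIs, the mitochondrial and ribosomal protein shares, Malat1, Son and the S and G2/M scores. With 0.042 UMI per thinned cell in control and 0.10 in sonKD, Polr2l was too sparse for these values to show that a relation is absent.

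Other genes of the transcription machinery are given for comparison by the same limit, beside 3.5% higher and 10.2% lower among all genes. The other polymerase II genes Polr2d, Polr2g and Polr2m had ratios of -0.10, -0.0033 and -0.11, and none passed the limit. Of 19 polymerase I and III subunits, 1 was higher, Polr3k at 0.36 (0.25 to 0.47), and 1 lower, Polr1b at -0.37 (-0.49 to -0.25), with a median of -0.029 that turned to 0.061 under TMM factors. None of the 29 general transcription factor genes of at least 10 CPM passed the limit (1 was higher under TMM factors, beside 5.57% of all genes). Their median was -0.078, or 0.012 under TMM factors, with Taf2 at -0.30 and Gtf2h5, a TFIIH subunit, at 0.25.

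Pausing and elongation factors had a median of -0.18, with 0 of 26 higher and 6 lower, or 23.1%. Nelfb at -0.52 (-0.66 to -0.38) and Nelfcd at -0.48 (-0.60 to -0.37) encode subunits of the negative elongation factor. Nelfa, Supt5 and Paf1, named after their values were seen, were at -0.36, -0.33 and -0.40. Likewise named, Nelfe (-0.063), Supt4a (-0.040), Ctr9 (0.011), Leo1 (0.032) and Rtf1 (-0.032) had intervals that included 0. The interval was above 0 for 1 of the 26, Larp7 at 0.18, and below 0 for 17, beside 12.3% and 51.5% of all genes. No complex is therefore read as lower as a unit. Under TMM factors 2 of the 26 were lower. Assembly and carboxy-terminal domain factors had 1 of 18 higher, Gpn2 at 0.37 (0.21 to 0.54), and 2 lower, Rpap1 at -0.46 (-0.56 to -0.37) and, named after its value was seen, Ctdp1 at -0.35, with a median of -0.15. No gene of these 5 lists reached the ratio of Polr2l, the highest among them being Gpn2.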

How the data were processed

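Transcripts of single cells were counted in 1 control and 1 sonKD library with 10x Genomics Chromium Single Cell 3' v3 chemistry. The deposited values are raw UMI counts per gene and barcode, which the authors made with Cell Ranger 7.1.0 per the file headers, on mm10 per the submitters' processing notes. The annotation and the use of intronic reads are not given in the sources used here. The libraries held 71046373 UMIs over 1408944 barcodes (control) and 60352438 over 1400093 (sonKD), with no selection of cells.

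Counts were summed over the cells and scaled to CPM, and a count under 3 was set to 3. Intervals at 95% were exact: Poisson for a level, Clopper-Pearson for a share, and the conditional binomial for a ratio. Doublets were kept, since Scrublet (scanpy 1.11.5) called 0.0603% of control and 0.0366% of sonKD cells, under the 0.5% of a working call. Removal of the highest scores at 0.8% per 1000 cells was an alternative, as were TMM factors (edgeR 4.0.16). Phases came from scanpy cell cycle scores of thinned cells. Shared transcript ends were sought with blastn 2.17.0, and annotation came from GENCODE M21, which holds 32158 of the 32285 listed identifiers. Ratios, thinning and correlation were tested on simulated data.

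The members and lists were chosen with earlier results of these data known. Named were all members and Son, the 2 genes of each list farthest from 0, and the 5 genes most like Polr2l and like the other 9 over control cells. A gene of the lists is counted but not reported by name here.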

Additional observations from a re-analysis of the deposited data

How the results depend on the processing

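No paired analysis was possible because each group held 1 library and no test was made. Of 254 values computed for 37 results under alternatives, 66 moved past the counting interval or the like tolerance set for a count, median or mean r. Signs changed for Polr2a with TMM factors (0.052), median-of-ratios size factors (0.047) and CPM without mitochondrial and ribosomal protein genes (0.036), and for Polr2f in thinned cells (-0.038), while Polr2l, Polr2k and Polr2e kept theirs. The list median changed sign for polymerase I and III subunits at 50 CPM (0.050) and with TMM factors (0.061), and for general transcription factors with TMM factors (0.012). The Polr2l ratio stayed between 1.24 and 1.45 under 9 alternatives, all inside its counting interval. TMM factors, median-of-ratios size factors and CPM without mitochondrial and ribosomal protein genes each gave 4 members higher, and the first 2 gave 0 lower. These scalings shifted the median of all genes by 0.090, 0.085 and 0.074.

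The count of all genes higher and lower was 169 and 226 at 50 CPM, 4484 and 3448 with no filter, 449 and 371 with TMM factors and 80 and 99 at a fold of 1.5. For polymerase I and III subunits, 0 of 8 were higher and 0 lower at 50 CPM. At a fold of 1.5, 0 of 19 were higher and 0 lower, and with TMM factors 0 of the 19 were lower. Among general transcription factors 1 of 31 was lower with no filter and 1 of 29 higher with TMM factors. For pausing and elongation factors, 2 of 17 were lower at 50 CPM, 2 of 26 with TMM factors and 0 of 26 at a fold of 1.5. Of assembly factors, 0 of 7 were higher and 1 lower at 50 CPM, and 1 of 18 was lower with TMM factors. At a fold of 1.5, 0 of the 18 were higher and 0 lower. Fewer genes enter at 50 CPM and pass a larger fold by construction.

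Polr2l was found in 7.97% of control and 19.1% of sonKD cells thinned to 5000 UMIs, and in 12.4% and 37.4% without thinning. Mean r without thinning was 0.081 in control and 0.12 in sonKD for pairs with Polr2l, and 0.17 and 0.22 for the others. In cells thinned to 5000 UMIs the mean r with Polr2l was 0.0049 in control and -0.00014 in sonKD. Polr2l had 0.042 and 0.10 UMI per cell thinned to 2500.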
